A study of Mus musculus with 16 samples.

Results

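The nuclear genes of the mitochondrial respiratory chain and ATP synthase were followed in the hypothalamus of male mice with no or 1 intact Agrp allele, the allele that encodes agouti-related peptide, which arcuate neurons release to promote feeding. Genes were chosen by symbol alone, from the name families of complexes I to IV and ATP synthase (Nduf, Sdh, Uqcr, Cox4 to Cox8 and Atp5). The array held 107 probes for 85 such genes. Of these, 77 genes had a probe above the median of all deposited values (5.125 on the log2 scale) in at least 4 of 16 arrays, out of 9530 genes that passed the same filter, and each gene was read by its brightest probe. By name, 32 genes belonged to complex I, 5 to complex I assembly and 3 to complex II. Another 6 belonged to complex III, 16 to complex IV and 15 to ATP synthase. The 32 include Ndufs5-ps, a pseudogene, and the 16 include Cox7a2l, a factor that joins complexes III and IV.

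There were 4 groups, each of 4 arrays: AgRP-/- mice fasted for 30 h, AgRP-/- mice fed ad libitum, AgRP+/- mice fasted for 30 h and AgRP+/- mice fed ad libitum. All were males of a mixed strain background, all carried at least 1 disrupted Agrp allele, and no wild-type group enters these comparisons. Age and the number of animals behind an array are not given in the labels, so the p-values below rest on sample-to-sample spread, part of which may be technical. The targeted gene had 0 probes under the name Agrp, which leaves the genotype labels without a check by gene name. The tissue label was borne out by 11 of 12 hypothalamic marker genes, which passed the filter. The mean over all 12, with Sim1 that did not pass, was 10.3 to 10.7 on every array.

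Respiratory complexes I, III and IV pass electrons from NADH to oxygen and pump protons across the inner mitochondrial membrane, complex II feeds in electrons from succinate, and ATP synthase uses the proton gradient to make ATP. Most subunits are encoded in the nucleus, while the catalytic membrane core of complexes I, III and IV and part of the ATP synthase motor come from mitochondrial DNA. Neurons depend on this pathway for most of their ATP, and the transcription factors NRF1, GABP (of the Ets family) and YY1, with the coactivator PGC-1alpha, are known regulators of the nuclear genes. By symbol, the array had a probe for 0 of the 13 mitochondrially encoded subunits, and none named Sdha. On the array 1719 probes carried no symbol.

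The probes of the 77 genes were bright and reproducible. Their mean log2 intensity over the 16 arrays had a median of 11.8 and ran between 5.25 for Cox8b and 14.5 for Atp5b, while all 13662 kept probes had a median of 7.52. The within-group SD had a median of 0.111 over the 77 genes and of 0.178 over all kept probes. It was 0.0897 in the median for the 50 genes above 11 on the log2 scale, and 0.296 for the 18 genes below 9, so dim members were measured less precisely than bright ones (Spearman rho of level and SD -0.778 across 77 genes, which share arrays and normalization). Intensities of different probes do not rank transcripts, because probes differ in how strongly they bind.

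**Figure D1:**
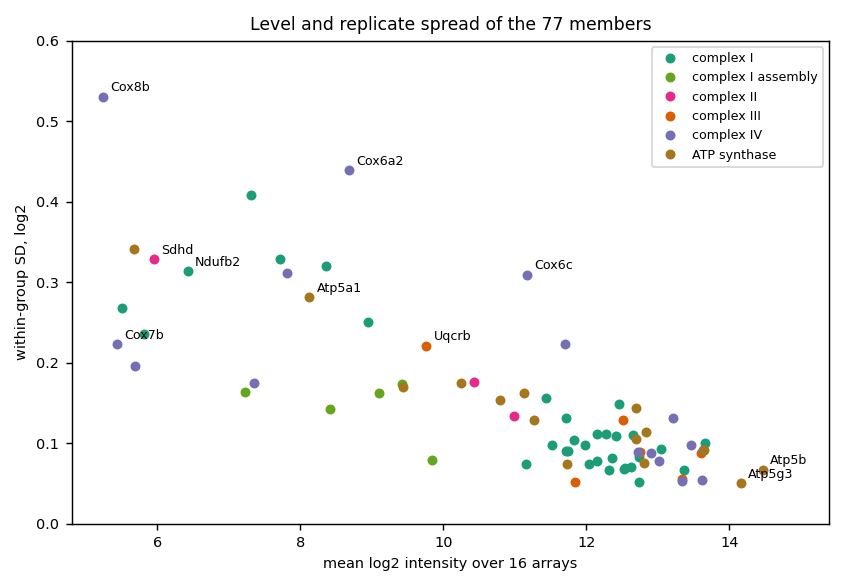
Mean log2 intensity over 16 arrays (x axis) and within-group SD on the log2 scale (y axis) of the 77 genes, with 1 point per gene coloured by complex. The 50 genes with a level above 11 have a median SD of 0.0897, Cox6c stands out among the bright genes with 0.309, and Cox8b and Cox6a2 have the widest spread at 0.530 and 0.439.

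At the filter, the nearest genes inside were Cox8b, above the median on 10 arrays, and Cox7b, above it on 14. The nearest outside were Uqcrfs1, the Rieske iron-sulfur protein of complex III, above it on 2 arrays, and Uqcrq, above it on 0. The other genes left out were Ndufs1, Ndufab1, Cox4i2, Cox7b2, Cox8c and Atp5k. All 8 had mean intensities between 4.40 and 4.91, near the low end of the scale, where a signal and background look alike.

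The first question is whether fasting moved these genes whatever the genotype. None of the 77 genes passed the test in the fasting contrast averaged over genotypes (0 called with limma at an adjusted p under 0.05), against 4.19% of all kept probes. The smallest adjusted p was 0.056, for Cox5a. At an unadjusted p under 0.05 there were 22 genes (28.6%, against 20.2% of all kept probes), of which 21 read lower in fasted mice (10.1% of all kept probes) and 1, Atp5g1, read higher (10.1% of all kept probes). Measured in bulk tissue, a lower signal from fewer cells of a type and from less RNA per cell cannot be told apart.

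The measured fasting differences leaned one way and were small. They lay below 0 for 59 of 77 genes, against 50.4% of all kept probes, with a median of -0.056 on the log2 scale, against -0.0014 for all kept probes. In AgRP-/- mice 51 genes lay below 0 (50.8% of all kept probes) with a median of -0.053, and in AgRP+/- mice 61 did (50.7%) with a median of -0.071. In both genotypes 43 genes (55.8%) lay below 0, against 34.2% of all kept probes. Another 8 lay above 0 in both, against 4473 of 13662 kept probes, and 26 had opposite signs, against 4516. The Pearson correlation of the AgRP-/- and AgRP+/- fasting differences was 0.372 across the 77 genes, which are not independent replicates. The 95% interval of the difference lay within 0.25 of 0 on the log2 scale for 53 of 77 in the averaged contrast, against 37.4% of all kept probes. Interval width follows the within-group SD, whose median was 0.111 for the 77 genes and 0.178 for all kept probes. Such interval counts, here and below, therefore reflect precision as well as size.

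**Figure D2:**
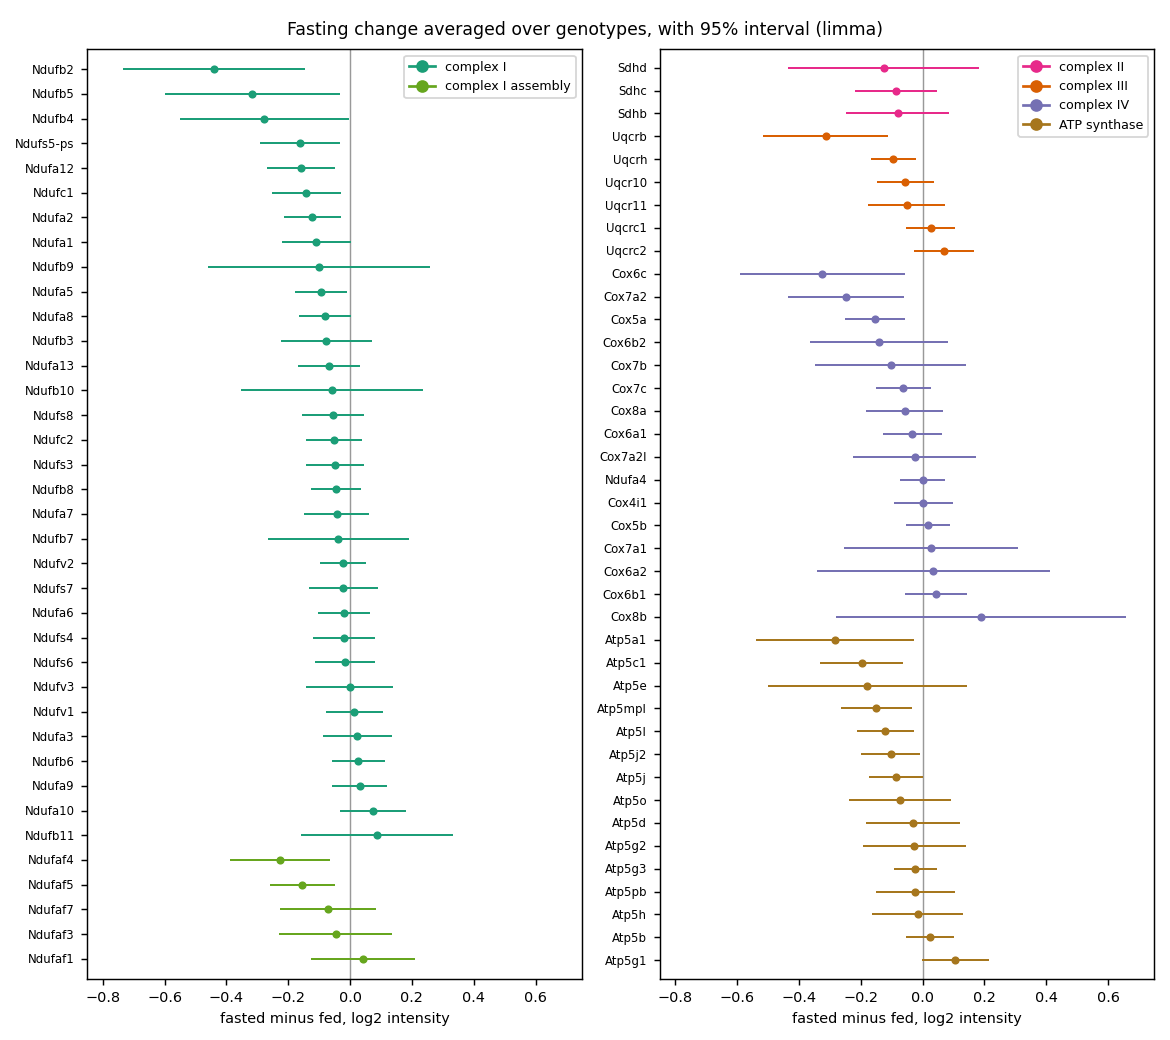
Fasted minus fed difference in log2 intensity, averaged over genotypes (x axis), for each of the 77 genes (rows), with points for the estimate and bars for its 95% interval from the limma fit, coloured by complex. Of the 77 points 59 lie left of 0, and the largest difference is that of Ndufb2 at -0.44.

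Relative to each gene's own mean over the 16 arrays, the average deviation of all 77 genes was 0.0014, -0.119, 0.030 and -0.027 on the 4 AgRP-/- fasted arrays, against -0.026, 0.037, 0.131 and 0.0014 on the AgRP-/- fed arrays. It was -0.011, -0.015, -0.011 and -0.136 on the AgRP+/- fasted arrays, against 0.027, -0.112, 0.101 and 0.128 on the AgRP+/- fed arrays. The groups overlapped in both genotypes, and the lowest arrays were AgRP+/- fasted replicate 4, AgRP-/- fasted replicate 2 and AgRP+/- fed replicate 2. The genes also moved together within groups, with a median pairwise correlation of their within-group deviations of 0.272 and 77.7% of 2926 pairs above 0. No value for other probes is given beside it, so this cannot be called particular to these genes.

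**Figure D3:**
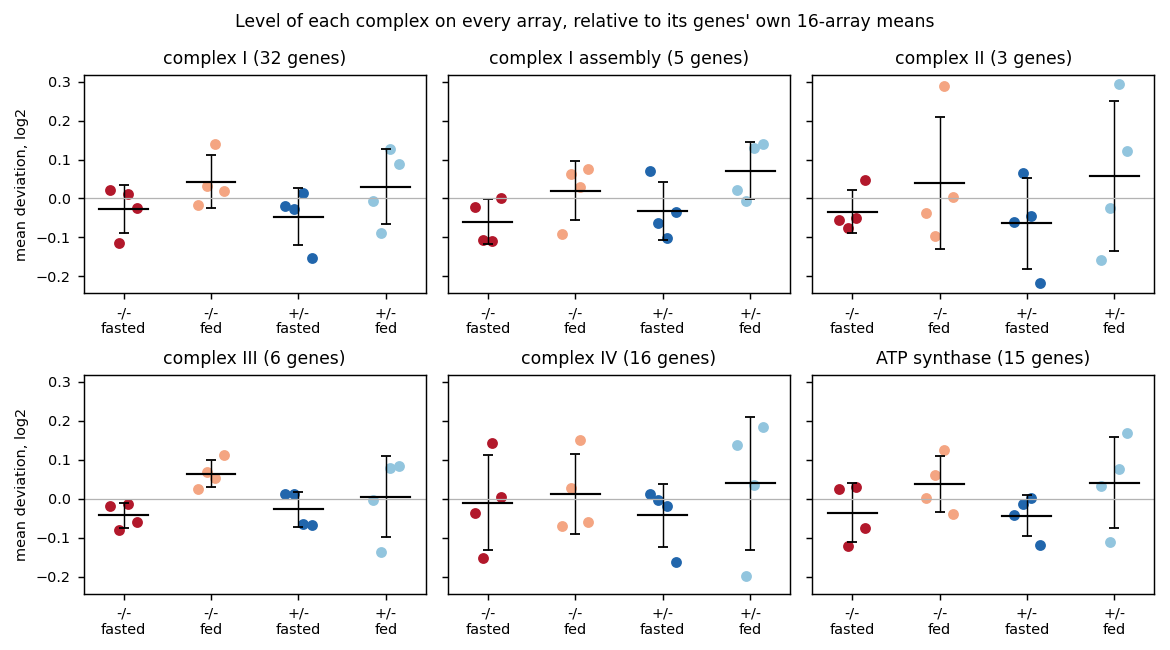
Mean deviation in log2 intensity of the genes of each complex from their own 16-array means (y axis), with 1 point per array in the 4 groups (x axis), bars for the group mean and whiskers for the SD (n = 4). Fasted and fed arrays overlap in all panels except complex III in AgRP-/- mice, where the fasted arrays reach -0.012 at most and the fed arrays start at 0.026.

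Other transcripts also differed between the groups. The mean of 6 midbrain dopamine neuron markers, all kept, was 7.21 to 7.55 on AgRP-/- fasted arrays, against 5.80 to 6.74 on AgRP-/- fed arrays, and 6.30 to 7.51 on AgRP+/- fasted arrays, against 6.06 to 6.59 on AgRP+/- fed arrays. Actb was read by several probes of 1 transcript, and its dimmest kept probe minus its brightest gave -5.02 to -4.03 against -6.39 to -4.68 in AgRP-/- mice and -5.61 to -4.47 against -6.19 to -5.27 in AgRP+/- mice, fasted arrays before fed. With the dopamine markers Slc6a3, Chrna6 and Th as a covariate the median fasting difference of the 77 genes was -0.100 and 0 genes were called with limma, against 0.242% of all kept probes. With the Actb difference it was -0.064 and 0 were called, against 1.29%. The pituitary hormone gene Gh read 7.78 in AgRP+/- fed replicate 2 and 6.14 in AgRP-/- fed replicate 1, against 4.27 to 5.05 on the other arrays, and Prl read 7.34 and 5.17 on these arrays. Other pituitary hormone genes were high elsewhere: Cga read 7.17 and Tshb 6.12 in AgRP-/- fasted replicate 2, and Cga 6.09 in AgRP-/- fed replicate 3. The mean of the 6 pituitary genes with a probe was 5.003 to 5.75 on AgRP-/- fasted arrays, against 5.06 to 5.56 on AgRP-/- fed arrays, and 4.98 to 5.22 on AgRP+/- fasted arrays, against 5.11 to 6.08 on AgRP+/- fed arrays.

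Complex I, the NADH dehydrogenase, had 26 of 32 genes below 0 and a median fasting difference of -0.051. The 5 catalytic core genes read here, which carry the flavin, iron-sulfur clusters and quinone site, had a median of -0.023. Of these 0 had an unadjusted p under 0.05, against 20.2% of all kept probes. With 5 genes the core cannot be set apart from the rest. The 8 of 32 complex I genes with such a p lay outside this core and all read lower (10.1% of all kept probes). They include the probe of the pseudogene Ndufs5-ps. Ndufb2, an accessory subunit of the membrane arm, read 6.37, 6.26, 6.64 and 6.30 on AgRP-/- fasted arrays, against 6.57, 6.32, 7.09 and 7.33 on AgRP-/- fed arrays. It read 6.23, 5.88, 6.27 and 5.68 on AgRP+/- fasted arrays, against 6.24, 6.31, 6.82 and 6.48 on AgRP+/- fed arrays. The lowest fed arrays overlapped the fasted ones in both genotypes, and the averaged difference was -0.44 (SE 0.14, 95% interval -0.73 to -0.15, limma adjusted p = 0.079), and -0.67 with the dopamine markers as a covariate.

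Ndufa12, an accessory subunit of the matrix arm, read 11.77, 11.63, 11.69 and 11.70 on AgRP-/- fasted arrays, against 11.87, 11.93, 11.96 and 11.70 on AgRP-/- fed arrays. It read 11.98, 11.69, 11.65 and 11.85 on AgRP+/- fasted arrays, against 11.91, 11.88, 11.96 and 12.02 on AgRP+/- fed arrays. A single high array, AgRP+/- fasted replicate 1, and a single low array, AgRP-/- fed replicate 4, made the groups overlap. The averaged difference was -0.16 (SE 0.051, interval -0.27 to -0.05, limma adjusted p = 0.082), and -0.069 with the Actb difference as a covariate. Ndufb5, a membrane arm subunit named here because its groups did not overlap, read 8.18, 8.05, 8.07 and 8.12 on AgRP+/- fasted arrays, against 8.20, 8.24, 8.60 and 8.68 on AgRP+/- fed arrays, with nearly touching values. In AgRP-/- mice its groups overlapped, and the averaged difference was -0.32 (SE 0.13, limma adjusted p = 0.19). Ndufa13, the brightest complex I gene, differed by -0.07 (SE 0.047). Ndufb4, the dimmest, with a mean of 5.51, differed by -0.28 (SE 0.13, limma adjusted p = 0.23).

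Among the complex I assembly factors, which build the complex and are no part of it, 4 of 5 lay below 0 with a median of -0.070. Ndufaf5, an enzyme that modifies a core subunit during assembly, read 9.75, 9.58, 9.78 and 9.79 on AgRP-/- fasted arrays, against 9.84, 9.91, 9.81 and 9.94 on AgRP-/- fed arrays, without overlap. It read 9.89, 9.74, 9.79 and 9.84 on AgRP+/- fasted arrays, against 9.86, 9.98, 10.07 and 9.99 on AgRP+/- fed arrays, where fasted replicate 1 lay above the lowest fed array. Its averaged difference was -0.15 (SE 0.049, interval -0.26 to -0.05, limma adjusted p = 0.078). Ndufaf4, an early assembly factor, differed by -0.23 (SE 0.076, interval -0.39 to -0.07, limma adjusted p = 0.097), and by -0.030 with the Actb difference as a covariate.

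Complex II, succinate dehydrogenase, was read by 3 of its 4 subunits. All 3 lay below 0 (50.4% of all kept probes), with none at an unadjusted p under 0.05 (20.2%). The membrane anchor Sdhc read 11.20, 10.78, 10.97 and 10.78 on AgRP-/- fasted arrays, against 10.99, 10.98, 11.05 and 10.93 on AgRP-/- fed arrays. It read 10.93, 11.06, 11.11 and 10.74 on AgRP+/- fasted arrays, against 11.09, 11.05, 11.11 and 11.06 on AgRP+/- fed arrays. Fed arrays were tightly grouped and lay inside or at the edge of the fasted range, and the averaged difference was -0.09 (SE 0.062, interval -0.22 to 0.04). The iron-sulfur subunit Sdhb differed by -0.08 (SE 0.078, interval -0.24 to 0.08) and the other anchor, Sdhd, by -0.13 (SE 0.15, interval -0.43 to 0.18). With the Actb difference as a covariate the sign of Sdhb turned, at 0.084, while Sdhc was at -0.17, and with array weights Sdhd was at -0.0064.

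In complex III, which passes electrons from ubiquinol to cytochrome c, Uqcrb, a small subunit near the ubiquinone site, had the largest difference. Uqcrb read 9.62, 9.57, 9.70 and 9.60 on AgRP-/- fasted arrays, against 9.86, 10.07, 10.06 and 10.57 on AgRP-/- fed arrays. It read 9.65, 9.73, 9.40 and 9.58 on AgRP+/- fasted arrays, against 9.73, 9.31, 9.98 and 9.78 on AgRP+/- fed arrays. The AgRP-/- groups did not overlap, while the AgRP+/- groups did, with fed replicate 2 the lowest of the 8 arrays. The difference was -0.52 in AgRP-/- mice (SE 0.13, interval -0.80 to -0.24, limma adjusted p = 0.094), -0.11 in AgRP+/- mice (SE 0.13, interval -0.39 to 0.17) and -0.31 averaged (SE 0.095, limma adjusted p = 0.067). The 2 arrays highest in Gh plus Prl were AgRP-/- fed replicate 1 and AgRP+/- fed replicate 2. They held the lowest fed Uqcrb values of their genotypes, 9.86 and 9.31, so leaving them out widens the difference. Without them the difference was -0.61 in AgRP-/- mice (limma adjusted p = 0.032) and -0.43 averaged (limma adjusted p = 0.0086). Without the 2 arrays highest over the whole pituitary list, AgRP-/- fasted replicate 2 and AgRP+/- fed replicate 2, an alternative chosen after seeing the data, it was -0.50 in AgRP-/- mice (limma adjusted p = 0.16) and -0.37 averaged (limma adjusted p = 0.038). The 4 AgRP-/- fasted arrays also lay below the 4 fed arrays in the mean deviation of the 6 complex III genes, but not in that of the 5 genes other than Uqcrb, which was -0.057 to 0.0065 on fasted and -0.028 to 0.021 on fed arrays.

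The other complex III genes differed little. Uqcrh, the acidic hinge protein that helps cytochrome c dock, read 13.34, 13.28, 13.28 and 13.27 on AgRP-/- fasted arrays, against 13.34, 13.38, 13.42 and 13.45 on AgRP-/- fed arrays, and differed by -0.09 averaged over genotypes (SE 0.034, limma adjusted p = 0.12). The core protein gene Uqcrc1 differed by 0.03 (SE 0.036, interval -0.05 to 0.10) and Uqcr10, a small membrane subunit, by -0.06 (SE 0.043, interval -0.15 to 0.03).

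In complex IV, cytochrome c oxidase, 9 of 16 genes lay below 0 with a median of -0.030. Cox5a, a matrix-facing subunit, read 12.69, 12.61, 12.64 and 12.59 on AgRP-/- fasted arrays, against 12.90, 12.77, 12.88 and 12.72 on AgRP-/- fed arrays. It read 12.73, 12.68, 12.61 and 12.61 on AgRP+/- fasted arrays, against 12.80, 12.64, 12.73 and 12.97 on AgRP+/- fed arrays. The AgRP-/- groups did not overlap, and in AgRP+/- mice fed replicate 2 lay among the fasted arrays. The difference was -0.18 in AgRP-/- mice (SE 0.063), -0.13 in AgRP+/- mice (SE 0.063) and -0.15 averaged (SE 0.045, interval -0.25 to -0.06, limma adjusted p = 0.056).

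Cox6c, a small membrane subunit, read 10.48, 10.94, 10.86 and 10.82 on AgRP-/- fasted arrays, against 11.06, 11.35, 11.83 and 10.99 on AgRP-/- fed arrays, without overlap. It read 11.76, 11.16, 11.02 and 11.01 on AgRP+/- fasted arrays, against 11.27, 11.53, 11.03 and 11.59 on AgRP+/- fed arrays, where fasted replicate 1 was the highest of all 8. The difference was -0.53 in AgRP-/- mice (SE 0.18, limma adjusted p = 0.20) and -0.12 in AgRP+/- mice (SE 0.18, interval -0.49 to 0.25). Averaged, it was -0.32 (SE 0.13), and 0.087 with the Actb difference as a covariate. Cox4i1, the largest nuclear-encoded subunit, differed by 0.0016 (SE 0.044, interval -0.09 to 0.09).

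ATP synthase had 13 of 15 genes below 0 and a median of -0.073. The catalytic subunit Atp5b read 14.51, 14.49, 14.42 and 14.47 on AgRP-/- fasted arrays, against 14.58, 14.41, 14.49 and 14.40 on AgRP-/- fed arrays, and differed by 0.02 averaged over genotypes (SE 0.036, interval -0.05 to 0.10). Atp5c1, the central shaft that turns inside the catalytic head, read 12.55, 12.59, 12.55 and 12.43 on AgRP-/- fasted arrays, against 12.66, 12.71, 12.92 and 12.52 on AgRP-/- fed arrays. It read 12.96, 12.55, 12.49 and 12.64 on AgRP+/- fasted arrays, against 12.94, 12.84, 12.79 and 12.96 on AgRP+/- fed arrays. As with Cox6c and Ndufa12, AgRP+/- fasted replicate 1 was high beside the other fasted arrays. The averaged difference was -0.20 (SE 0.063, interval -0.33 to -0.07, limma adjusted p = 0.082), and -0.019 with the Actb difference as a covariate.

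Atp5l, the membrane subunit g at the contact between paired ATP synthases, read 11.75, 11.61, 11.66 and 11.64 on AgRP-/- fasted arrays, against 11.77, 11.85, 11.79 and 11.77 on AgRP-/- fed arrays, without overlap but with nearly touching values. The averaged difference was -0.12 (SE 0.042, limma adjusted p = 0.11). Atp5e, the dimmest ATP synthase gene, with a mean of 5.68, differed by -0.18 (SE 0.15). Atp5g1, Atp5g2 and Atp5g3 encode the same mature c subunit of the rotor ring. Atp5g1 read 12.82, 12.49, 12.77 and 12.84 on AgRP-/- fasted arrays, against 12.59, 12.68, 12.64 and 12.58 on AgRP-/- fed arrays, where only fasted replicate 2 was low. It differed by 0.11 (SE 0.050, interval 0.0023 to 0.21, limma adjusted p = 0.24), and by 0.040 with the Actb difference as a covariate, while Atp5g2 differed by -0.03 (SE 0.078) and Atp5g3 by -0.02 (SE 0.031).

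**Figure D4:**
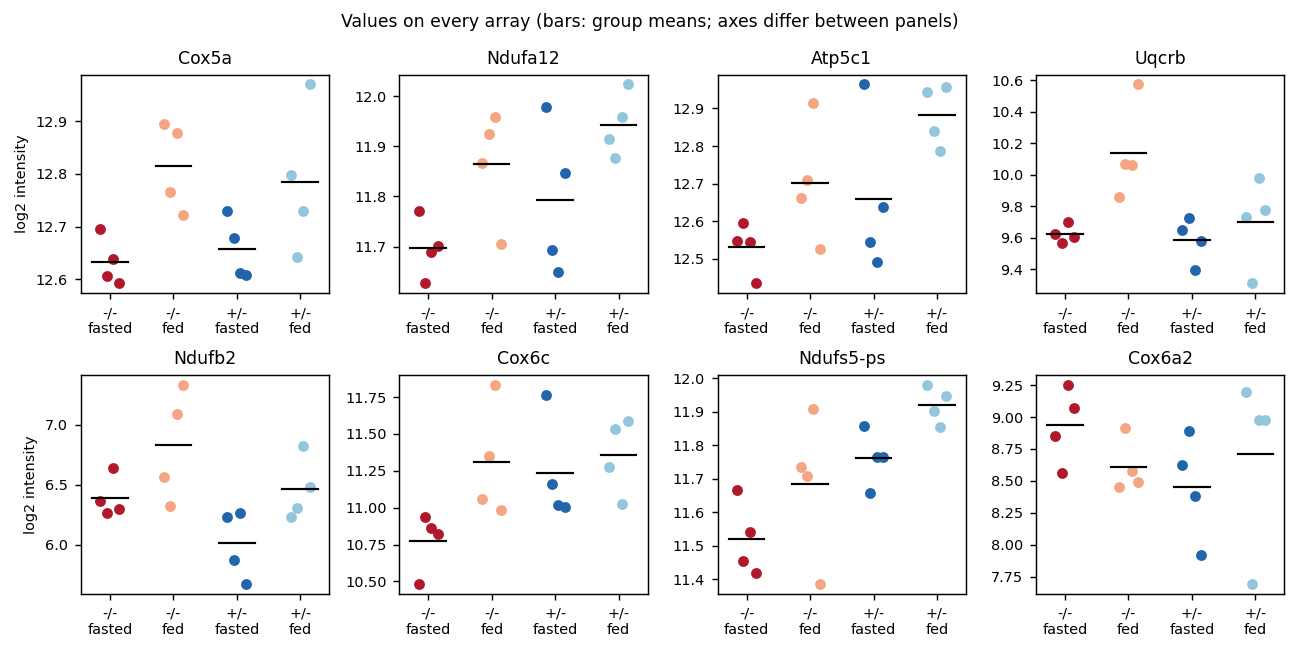
Log2 intensity (y axis, which differs between panels) on each of the 16 arrays in the 4 groups (x axis) for 8 genes, with points for arrays and bars for group means. In AgRP-/- mice the fasted arrays of Cox5a, Uqcrb and Cox6c lie below all fed arrays, and AgRP+/- fasted replicate 1 is high for Ndufa12, Atp5c1 and Cox6c.

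Within single genotypes 0 of 77 genes were called with limma in AgRP-/- mice (0.388% of all kept probes) and 0 in AgRP+/- mice (0.754%). At an unadjusted p under 0.05 there were 11 lower (6.65% of all kept probes) and 1 higher (6.38%) in AgRP-/- mice (15.6%, against 13% of all kept probes) and 6 lower (5.28%) and 0 higher (6.42%) in AgRP+/- mice (7.79%, against 11.7%). Fasted arrays lay below all fed arrays for 5 genes in AgRP-/- mice (Ndufaf5, Uqcrb, Cox5a, Cox6c and Atp5l, against 4.16% of all kept probes) and for 1, Ndufb5, in AgRP+/- mice (2.39%), and for 0 genes in both (0.454%). Fasted arrays lay above all fed arrays for 0 genes in AgRP-/- mice (4.07%) and 0 in AgRP+/- mice (3.32%). The interval lay within 0.25 of 0 for 36 genes in AgRP-/- mice and for 37 in AgRP+/- mice, against 17.9% of all kept probes in each.

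Several complex IV subunits exist as tissue isoforms, of which heart and skeletal muscle favour Cox6a2, Cox7a1 and Cox8b. Both Cox6a2 and Cox7a1 gave a signal here, with means of 8.68 and 7.81, beside 2 of 6 muscle markers that passed the filter (Acta1 at 7.64 to 8.37 and Actn3 at 4.57 to 5.37 over the 16 arrays) and 4 that did not (Ckm, Myh1, Myh4 and Tnnt3). Their part in the Cox6a2 and Cox7a1 signals was not tested. Cox6a2 read 8.86, 8.56, 9.25 and 9.07 on AgRP-/- fasted arrays, against 8.45, 8.92, 8.58 and 8.49 on AgRP-/- fed arrays. It read 8.62, 8.89, 8.38 and 7.92 on AgRP+/- fasted arrays, against 9.19, 7.70, 8.98 and 8.98 on AgRP+/- fed arrays. The groups overlapped in both genotypes, with measured differences of opposite sign, 0.33 (SE 0.25) in AgRP-/- mice and -0.26 (SE 0.25) in AgRP+/- mice, and an interaction of 0.58 (interval -0.17 to 1.33).

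Averaged over genotypes, Cox6a2 differed by 0.03 (SE 0.18) and Cox7a1 by 0.03 (SE 0.13). The ubiquitous partners Cox6a1, Cox6b1 and Cox8a had brighter probes and smaller SEs. Cox6a1 differed by -0.03 (SE 0.044), Cox6b1 by 0.04 (SE 0.047), Cox8a by -0.06 (SE 0.058) and Cox7a2l, a factor that joins complexes III and IV, by -0.03 (SE 0.093). Cox7a2, the isoform outside muscle, read 7.25, 7.07, 7.29 and 7.35 on AgRP-/- fasted arrays, against 7.61, 7.33, 7.51 and 7.22 on AgRP-/- fed arrays. It read 7.45, 7.05, 7.37 and 7.01 on AgRP+/- fasted arrays, against 7.68, 7.51, 7.65 and 7.32 on AgRP+/- fed arrays. The difference was -0.17 in AgRP-/- mice (SE 0.12), -0.32 in AgRP+/- mice (SE 0.12) and -0.25 averaged (SE 0.088, limma adjusted p = 0.12). Cox6b2, known as the testis isoform, read 5.69 on average, close to the filter, and Cox4i2 and Cox8c did not pass it. Ndufa4, now counted with complex IV, differed by 0.00058 (SE 0.033, interval -0.07 to 0.07).

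Different probes of the same gene did not always give the same value. Ndufs4, a subunit of complex I, had 4 kept probes, of which the brightest differed by -0.02 with fasting and the dimmer ones by -0.17, -0.26 and -0.32. The dimmer Sdhb probe gave -0.21, against -0.08 for the brighter one. For Ndufb11, Ndufb6 and Cox6b1 the brighter probe lay above 0 (0.09, 0.03 and 0.04) and the dimmer below (-0.18, -0.15 and -0.04). The reverse was seen for Atp5j (-0.09 and 0.01) and Cox6a1 (-0.03 and 0.04). The brightest Ndufv3 probe gave -0.0019 and its dimmer ones -0.025 and 0.13. With the mean of all kept probes taken for each gene, 0 of the 77 genes were called with limma, against 4.35% of all genes.

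Genotype was compared next, within each feeding state and averaged. With limma 0 of 77 genes were called in fed mice (0.00732% of all kept probes), 0 in fasted mice (0.0146%) and 0 averaged over feeding states (0.0293%). At an unadjusted p under 0.05 there were 5 in fed mice (6.49%, against 4.27%), 2 in fasted mice (2.6%, against 6.87%) and 6 averaged (7.79%, against 8.62%). In fed mice 2 of the 5 read lower (1.9% of all kept probes) and 3 higher (2.37%), in fasted mice 2 lower (3.48%) and 0 higher (3.4%), and averaged 4 lower (4.45%) and 2 higher (4.17%). The genotype difference lay below 0 for 44 genes in fed mice (50.2%) and 36 in fasted mice (52%). The medians were -0.012, 0.0022 and -0.0017 on the log2 scale in fed mice, in fasted mice and averaged. The averaged interval lay within 0.25 of 0 for 56 of 77 genes, against 44.7% of all kept probes, that in fed mice for 44 (23%) and that in fasted mice for 48 (19.6%). All AgRP-/- arrays lay below all AgRP+/- arrays for 0 genes in fed mice (1.19%) and 1, Cox6c, in fasted mice (2.39%), and above them for 1, Ndufa6, in fed mice (1.1%) and 1, the complex I subunit gene Ndufc2, in fasted mice (1.52%).

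The smallest averaged p belonged to the probe annotated to Ndufs5-ps, a transcribed pseudogene of the complex I subunit gene Ndufs5. No probe was named Ndufs5, and whether this one also binds its transcript was not tested. It read 11.67, 11.45, 11.54 and 11.42 on AgRP-/- fasted arrays, against 11.86, 11.66, 11.77 and 11.77 on AgRP+/- fasted arrays. It read 11.74, 11.71, 11.91 and 11.39 on AgRP-/- fed arrays, against 11.98, 11.90, 11.86 and 11.95 on AgRP+/- fed arrays. In each feeding state a single AgRP-/- array overlapped the AgRP+/- range. The averaged genotype difference was -0.24 (SE 0.060, interval -0.37 to -0.11, unadjusted p = 0.00076, limma adjusted p = 0.30), and it ran between -0.28 and -0.19 with each array left out in turn.

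Of the other genes, 4 differed by more than 0.2 in size in the averaged genotype contrast: Ndufb2, Uqcrb, Cox6c and Cox7b. Ndufb2, whose values are given above, read higher in AgRP-/- than in AgRP+/- mice by 0.37 (SE 0.14, interval 0.08 to 0.66, limma adjusted p = 0.49). Uqcrb read higher by 0.24 (SE 0.095, limma adjusted p = 0.52), with 0.44 in fed mice (SE 0.13, interval 0.16 to 0.72) and 0.03 in fasted mice (SE 0.13, interval -0.25 to 0.31). Cox6c differed by -0.25 averaged (SE 0.13, interval -0.52 to 0.0097) and by -0.46 in fasted mice (SE 0.18, interval -0.83 to -0.09). Ndufaf4 and Atp5c1 read lower by averages of -0.20 (SE 0.076) and -0.15 (SE 0.063). The membrane subunit Cox7b, dim at 5.44, read 0.40 higher in fed AgRP-/- mice (SE 0.16, interval 0.05 to 0.74) and 0.23 averaged (SE 0.12), and the peripheral stalk subunit Atp5h differed by 0.10 averaged (SE 0.069, interval -0.05 to 0.24).

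The design also asks whether the fasting difference depended on genotype. With limma 0 of 77 genes were called in the interaction, against 0% of all kept probes, and 1 gene had an unadjusted p under 0.05, against 2.72% (0 higher, against 1.24%, and 1 lower, against 1.47%). That gene was Uqcrb, at -0.41 (SE 0.19, interval -0.80 to -0.01, unadjusted p = 0.045, limma adjusted p = 1.00), and it ran between -0.50 and -0.26 with each array left out in turn. Ndufa6, an accessory subunit, had an interaction of -0.13 (SE 0.078, interval -0.30 to 0.03). The interaction was the least precise contrast, with an interval within 0.25 of 0 for 32 of 77 genes (6.31% of all kept probes).

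Genes around the respiratory chain were read from 6 lists of the same pathway. Among assembly factors other than the Ndufaf genes, 26 of 35 passed the filter. With limma 2 fell and 0 rose with fasting averaged over genotypes, where 4.19% of all kept probes were called in either direction. Cox10, which makes a precursor of the heme A of complex IV, read 10.21, 10.33, 10.05 and 10.22 on AgRP-/- fasted arrays, against 10.47, 10.49, 10.49 and 10.50 on AgRP-/- fed arrays. It read 10.10, 10.16, 10.27 and 10.34 on AgRP+/- fasted arrays, against 10.55, 10.45, 10.47 and 10.49 on AgRP+/- fed arrays. All fasted arrays lay below all fed arrays in both genotypes, as they did for 0.454% of all kept probes. The averaged difference was -0.28 (SE 0.048, limma adjusted p = 0.0020). With the dopamine markers as a covariate it was -0.24 (limma adjusted p = 0.15), and with the Actb difference -0.28 (limma adjusted p = 0.038).

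Timmdc1, a membrane factor of complex I assembly, also fell, with a log2 difference of -0.38 (SE 0.11, limma adjusted p = 0.048). The call was lost with 13 of 16 arrays left out in turn (adjusted p between 0.026 and 0.091). Among regulators, 11 of 12 were kept and 1 was called (4.19% of all kept probes). Ppargc1a, which encodes PGC-1alpha, rose. It read 8.36, 8.48, 8.09 and 8.17 on AgRP-/- fasted arrays, against 7.51, 7.88, 7.90 and 7.81 on AgRP-/- fed arrays, without overlap (4.07% of all kept probes). It read 7.98, 8.10, 7.76 and 8.22 on AgRP+/- fasted arrays, against 7.73, 8.17, 7.62 and 7.80 on AgRP+/- fed arrays, with overlap. The averaged difference was 0.34 (SE 0.093, limma adjusted p = 0.045), and the call was lost with 13 of 16 arrays left out in turn (adjusted p between 0.016 and 0.090).

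Slc25a14, a mitochondrial carrier found in brain, was the 1 of 8 kept genes called among carriers, porins and uncoupling proteins (4.19% of all kept probes). It fell, with a log2 difference of -0.24 (SE 0.063, limma adjusted p = 0.034), and the call was lost with 9 of 16 arrays left out in turn (adjusted p between 0.015 and 0.072). With the dopamine markers or the Actb difference as a covariate, Timmdc1 differed by -0.33 or -0.50 (limma adjusted p = 0.39 or 0.077). Ppargc1a then differed by 0.43 or 0.44 (limma adjusted p = 0.20 or 0.079). Slc25a14 differed by -0.28 or -0.25 (limma adjusted p = 0.22 or 0.16). The differences kept their sign while the calls were lost. With limma 0 of 15 kept genes of the tricarboxylic acid cycle and pyruvate dehydrogenase were called (4.19% of all kept probes), with a median of 0.00073. The brighter probe of the electron carrier gene Cycs differed by -0.25 (SE 0.099, limma adjusted p = 0.16), and its dimmer probe, at a mean of 5.38, fell, with a log2 difference of -0.44 (SE 0.12, limma adjusted p = 0.044). Cyc1, cytochrome c1 of complex III, differed by -0.05 (SE 0.039).

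Promoter windows, 250 bases before to 50 after the start, were matched by gene ID for 66 of the 77 genes (71 windows, RefSeq, build GRCm38.p6) and searched on both strands for short motifs of the regulators above. The NRF1 letters GCATGCGC were in 14.1% of these windows and 2.71% of all 32851 windows. The Ets family letters CCGGAAG were in 22.5%, against 8.86%, and the YY1 letters AAGATGGC in 14.1%, against 2.75%. The median fasting difference was -0.066 for 10 genes with and -0.048 for 56 without the NRF1 letters, -0.053 for 16 with and -0.046 for 50 without the Ets letters, and -0.023 for 10 with and -0.054 for 56 without the YY1 letters. A match describes the letters and is no evidence of binding. The 5 windows that hold letters of more than 1 of these motifs are shown, with matches in capitals: Atp5j (chr16:84834927-84835226, minus strand, YY1 and Ets), Atp5l (chr9:44920693-44920992, minus strand, NRF1 and Ets), Cox6a1 (chr5:115348909-115349208, minus strand, NRF1 on both strands, overlapping, and Ets), Sdhb (chr4:140961021-140961320, plus strand, NRF1 and Ets) and Uqcr11 (chr10:80406772-80407071, minus strand, Ets and NRF1).
Atp5j: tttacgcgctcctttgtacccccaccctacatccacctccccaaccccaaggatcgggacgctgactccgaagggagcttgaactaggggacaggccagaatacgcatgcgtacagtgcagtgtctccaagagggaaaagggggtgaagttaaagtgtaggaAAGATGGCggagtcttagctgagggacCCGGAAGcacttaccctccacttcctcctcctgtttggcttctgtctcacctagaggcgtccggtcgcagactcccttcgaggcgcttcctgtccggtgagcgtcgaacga
Atp5l: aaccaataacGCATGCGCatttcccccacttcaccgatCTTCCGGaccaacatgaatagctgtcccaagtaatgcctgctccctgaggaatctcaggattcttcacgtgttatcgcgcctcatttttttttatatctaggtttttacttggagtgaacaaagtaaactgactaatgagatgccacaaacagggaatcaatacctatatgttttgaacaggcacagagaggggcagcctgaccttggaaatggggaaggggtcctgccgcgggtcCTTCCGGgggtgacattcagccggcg
Cox6a1: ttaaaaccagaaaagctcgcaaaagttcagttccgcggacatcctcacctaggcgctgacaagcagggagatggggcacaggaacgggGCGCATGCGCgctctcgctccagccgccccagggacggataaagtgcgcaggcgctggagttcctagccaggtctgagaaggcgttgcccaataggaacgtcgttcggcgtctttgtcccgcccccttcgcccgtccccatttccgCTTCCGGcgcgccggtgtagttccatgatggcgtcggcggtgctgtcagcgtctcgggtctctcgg
Sdhb: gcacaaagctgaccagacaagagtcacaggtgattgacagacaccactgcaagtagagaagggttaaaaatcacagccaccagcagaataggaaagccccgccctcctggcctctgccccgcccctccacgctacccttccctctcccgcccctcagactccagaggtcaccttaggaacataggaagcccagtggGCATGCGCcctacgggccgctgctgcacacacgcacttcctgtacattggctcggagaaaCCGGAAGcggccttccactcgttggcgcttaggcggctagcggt
Uqcr11: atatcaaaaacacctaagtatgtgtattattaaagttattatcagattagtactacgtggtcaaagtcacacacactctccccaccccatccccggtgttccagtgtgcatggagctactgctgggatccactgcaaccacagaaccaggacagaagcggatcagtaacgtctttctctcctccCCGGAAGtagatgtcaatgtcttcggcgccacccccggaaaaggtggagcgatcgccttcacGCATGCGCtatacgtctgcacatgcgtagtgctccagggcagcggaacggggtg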

How the data were processed

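Total RNA from hypothalamus was hybridised to Illumina mouse bead arrays, 4 per group. The authors deposited 1 normalized log2 intensity per probe and array (25697 probes, values between 4.21 and 14.7, column medians 5.12 to 5.13). The submitters' processing notes name limma. How background was corrected and arrays were normalized is not given in the sources used. Symbols came from the platform annotation.

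A probe was kept if it exceeded the overall median on 4 or more arrays (13662 probes). Values were used as deposited, with no further normalization. Limma 3.58.1 in R 4.3.3 fitted the 4 group means on all 16 arrays with an intensity trend (lmFit, eBayes), and 7 contrasts were adjusted over all kept probes by Benjamini-Hochberg, with a threshold of 0.05. The code was tested on simulated data. Python 3.11.15, pandas 2.3.3 and matplotlib 3.10.9 drew the figures and searched promoters. The number of arrays limits the precision.

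The genes, lists and covariates were chosen with earlier results of these data known. The text names, per complex, the 2 genes with the smallest p for averaged fasting and for averaged genotype, the brightest and dimmest, listed paralogues, the 2 smallest interaction p-values, the genes nearest the filter and called pathway genes. Ndufb5, Ndufc2, Ndufs4, Ndufb11, Ndufb6, Ndufv3, Atp5j and Uqcr11 were named after their values were seen. Alternatives changed the filter, normalization, probe choice, array weights, trend, samples, block and covariates. Of 9 lists of cell type markers, those for pituitary, midbrain dopamine neurons, hypothalamus and striated muscle are reported.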

Additional observations from a re-analysis of the deposited data

Results flagged for a closer look

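In 7 of 176 groups of 4 arrays, 1 array lay far from the other 3 by Dixon's criterion, where chance gives about 1 in 20 groups. In AgRP+/- fasted replicate 4, the mean deviation of all 77 genes was -0.136, against -0.0151 to -0.0107 on the other arrays of its group. On the same array the mean deviation of the complex IV genes was -0.163 (others -0.0173 to 0.0125) and Cox7a1 read 7.45 (others 7.81 to 7.87). Ndufaf5 read 9.58 in AgRP-/- fasted replicate 2 (others 9.75 to 9.79), and Cox6a2 read 7.70 in AgRP+/- fed replicate 2 (others 8.98 to 9.19). Atp5g3 read 14.28 in AgRP-/- fed replicate 3 (others 14.11 to 14.14), and Atp5l read 11.77 in AgRP+/- fasted replicate 1 (others 11.64 to 11.65).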

How the results depend on the processing

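For averaged fasting, 0 genes were called, against 4.19% of all kept probes. The count became 1 with the stricter filter (Cox5a, adjusted p = 0.044; 1 of 66 genes, against 6.34% of all probes), 3 with array weights (Ndufa12, Cox5a and Atp5c1; 3.9%, against 6.03%), 1 without the 2 arrays highest in Gh plus Prl (Uqcrb, adjusted p = 0.0086; 1.3%, against 3.22%) and 1 without the 2 arrays highest over the pituitary list, chosen after seeing the data (Uqcrb, adjusted p = 0.038; 1.3%, against 2.57%). With the replicate number as a block it became 1 (Ndufb2, adjusted p = 0.044; 1.3%, against 4.61%). Whether the numbers pair the samples is not given in the labels. Of 24 same-numbered pairs, 7 correlated over 0.1 (range -0.187 to 0.299). These values cover same-numbered pairs only and cannot settle it. Leaving out each array in turn gave 0 to 4. It was 3 without AgRP+/- fed replicate 2 (Uqcrb, Cox5a, Atp5l; 3.9%, against 3.7%), 1 without AgRP-/- fed replicate 1 (Uqcrb; 1.3%, against 3.37%), 1 without AgRP-/- fed replicate 2 (Ndufb2; 1.3%, against 3.51%), 3 without AgRP-/- fed replicate 4 (Ndufa12, Ndufs5-ps, Cox5a; 3.9%, against 3.32%) and 4 without AgRP+/- fasted replicate 1 (Ndufa12, Ndufaf4, Cox6c, Atp5c1; 5.19%, against 3.86%). For fasting in AgRP-/- mice it became 1 without the 2 arrays highest in Gh plus Prl (Uqcrb, adjusted p = 0.032; 1.3%, against 0.285%). Those 2 arrays held the lowest fed Uqcrb values of their genotypes, so leaving them out widens its difference. The other 5 contrasts gave 0 under all alternatives run. The median averaged fasting difference stayed below 0 in all 29 alternatives (-0.100 to -0.037). The cause of these shifts was not tested. Genes below 9 on the log2 scale were measured less precisely than brighter ones.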
